A study of Mus musculus with 41 samples.

Results

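The first healing step in old mice was measured as the difference between tibiae harvested 5 days after a bilateral fracture and tibiae labelled day 0, both from 25-month-old animals. The comparison used 11 of the 41 arrays of the series, 5 labelled 25 months and 5 days after fracture and 6 labelled 25 months and day 0, and it ran across all 19938 genes measured. All mice came from the NIH aged rodent colony, and no genotype or transgene separated the groups. The legs were stabilised with an intramedullary pin, a closed fracture was made by 3-point bending under isoflurane, and the analgesic buprenorphine was given. Extracts held either whole bone or callus alone, the labels do not say which array held which, and the day 0 samples are also labelled callus. No source used here gives the strain, the sex or the number of bones per extract. Each array came from a different mouse, so the p-values measure the spread between mice together with that of dissection and hybridisation.

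A fractured bone bleeds and forms a clot, which neutrophils and then macrophages enter. Cells of the periosteum and the surrounding muscle multiply, lay down a soft matrix of collagen and proteoglycans, and form cartilage and bone at the edges of the break. Whole mouse bone also carries its marrow, where red cells, granulocytes, B cells and platelets are made, and the muscle that clings to it. In such bulk samples, fewer cells of a type and less RNA per cell cannot be told apart. A different share of marrow in the extracts cannot be told apart from these, as the labels do not say which held whole bone.

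Levels are the authors' log2 normalized intensities from Affymetrix Mouse Gene 1.0 ST arrays, so 1 unit is a doubling of intensity. Changes are differences of group means (day 5 minus day 0) ± SE from a limma model over all 41 arrays, with p-values adjusted over 19938 genes. A gene is said to rise or fall where its adjusted p was under 0.05. By that measure 6790 genes (34.1%) differed between the groups, 3647 of them (18.3%) higher and 3143 (15.8%) lower at day 5, and 1341 (6.73%) also differed by at least 2-fold. The arrays of the 2 days did not overlap for 3641 genes (18.3%), called or not. The median change over all genes was −0.03. These shares are the background for every count below. The called share was close to 34.1% for CC chemokines, MHC II genes, other collagens, TGF-beta ligands, Wnt receptors, cartilage and hypoxia. It was lower for interferon response, Wnt ligands, osteocytes, mature muscle, adipocytes, epidermis, respiration and cholesterol synthesis.

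The groups separated cleanly as a whole, and 1 array stood apart within its group. A first principal component of the 11 arrays carried 62.0% of their variance and ran from −41.1 to −24.7 at day 0 and from 32.8 to 50.9 at day 5. The second carried 14.1% and set day 5 replicate 4 (40.7) against the other day 5 arrays (−22.4 to 10.2). Correlations between arrays of a group lay between 0.977 and 0.993 at day 0 and between 0.968 and 0.992 at day 5. Array medians of the series lay between 5.374 and 5.483. Sample names begin with a digit in 3 of the 6 day 0 arrays and 1 of the 5 day 5 arrays and with a letter in the rest, and the labels do not say what this marks. Lettered names begin with N at day 0 and with H at day 5. A division by digit or letter alone cannot separate these prefixes from the day. With the kind of name (digit or letter) as a covariate 6323 genes were called, and 3370 among the 7 arrays with lettered names. Among those 7 arrays 8 of 36 G2/M genes and 11 of 29 G1/S genes were lower, 7 of 14 mature B-cell genes were lower, and 10 of 32 secretory and 5 of 24 lysosomal genes were higher, each count less than with all 11 arrays. The median changes of these 5 lists were −0.94, −0.87, −1.31, 0.53 and 0.45 there, against −0.85, −0.80, −1.20, 0.62 and 0.54. Other lists went both ways. Among the lettered arrays 6 of 16 osteoblast and 4 of 11 fibrillar collagen genes were higher and 22 of 24 red-cell genes lower, fewer than with all arrays. There 9 of 10 platelet genes were lower and 14 of 24 vessel genes higher, more than with all arrays. The defining genes of the labelled tissue were measured at both days. The bone collagen gene Col1a1 measured 11.27, 11.86, 11.39, 9.61 and 10.90 in day 5 replicates 1 to 5, and its lowest, median and highest day 0 levels were 9.47, 9.64 and 11.37. The cartilage collagen gene Col2a1 was spread from 6.02 to 7.24 at day 5.

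Timp1, which encodes an inhibitor of matrix metalloproteinases, rose furthest in old bones. Its lowest, median and highest levels were 6.75, 7.26 and 8.39 in the 6 day 0 arrays, and it measured 11.36, 11.96, 11.83, 10.35 and 11.44 in day 5 replicates 1 to 5, a change of 4.03 ± 0.27 or 16.3-fold (adjusted p = 3e-13). Tnfaip6, whose product binds hyaluronan and dampens inflammation, went from 4.14, 4.35 and 4.73 at day 0 in the same order to 8.63, 8.08, 9.11, 7.49 and 8.66 at day 5 (change 3.98 ± 0.31, adjusted p = 3.1e-12). For both genes every day 5 array lay above every day 0 array, and day 5 replicate 4 was the lowest of its group. Prg4, the gene of the joint lubricant lubricin, measured 10.38, 10.71, 10.68, 10.19 and 10.76 at day 5 against 5.65, 6.83 and 7.25 at day 0 and had the narrowest day 5 range of these 3 genes (change 3.85 ± 0.41). Replicate 4 was its lowest day 5 array too.

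Among the other genes that rose furthest, several encode secreted proteins of the matrix. Cthrc1, a secreted gene of injured and remodelling connective tissue, measured 10.65, 10.46, 9.996, 8.22 and 9.46 at day 5 against a day 0 range of 5.42 to 7.12 (change 3.82 ± 0.36). Vcan, the large hyaluronan-binding proteoglycan versican, measured 9.75, 10.32, 10.06, 8.43 and 9.82 against 5.59 to 6.54 (change 3.77 ± 0.26), and the Wnt antagonist Sfrp1 measured 9.47, 9.62, 9.08, 6.94 and 8.90 against 4.87 to 5.53 (change 3.49 ± 0.35). Replicate 4 gave the lowest day 5 value of Cthrc1, Vcan and Sfrp1 and still lay above all day 0 arrays. The secreted factor gene C1qtnf3 had a wider day 5 range than these 3, with 9.50, 9.16, 8.58, 6.26 and 7.72 at day 5 against 4.65 to 5.36 at day 0 (change 3.40 ± 0.42). Lrrc17, a secreted inhibitor of osteoclast formation, rose by 3.38 ± 0.25, the acute-phase gene Saa3 by 3.43 ± 0.33 and the imprinted gene Mest by 3.35 ± 0.30.

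**Figure D1:**
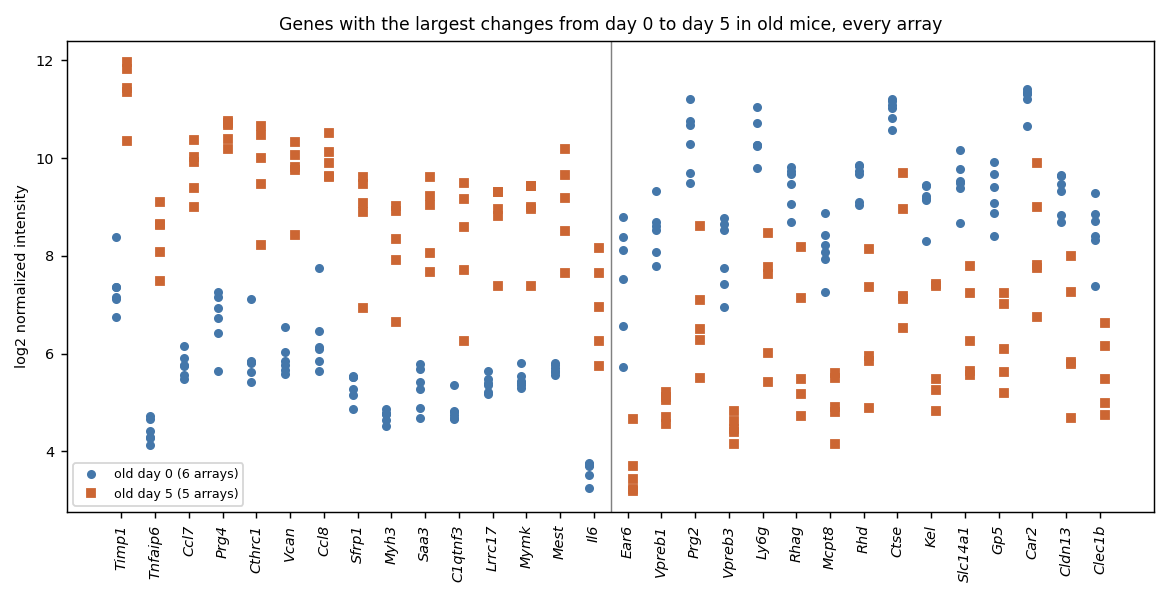
Log2 normalized intensity (y axis) of the 15 genes that rose and the 15 that fell furthest among genes called without overlap, predicted genes left out, with blue circles for the 6 old day 0 arrays and orange squares for the 5 old day 5 arrays. The vertical line divides genes that rose from genes that fell. Timp1 (change 4.03) stands first among the former and Ear6 (−3.88) among the latter, and the day 5 squares spread widely for red-cell genes such as Rhag.

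Chemokine ligand genes moved in both directions. Of 17 CC chemokine genes measured, 5 rose and 1 fell (median change 0.18, 0.30 without day 5 replicate 2), a called share close to the 34.1% of all genes. The 4 with the largest rises encode attractants of monocytes. Ccl7 measured 8.997, 9.91, 10.03, 9.39 and 10.37 in day 5 replicates 1 to 5 against 5.47, 5.76 and 6.16 (lowest, median, highest) at day 0 (change 3.97 ± 0.37, adjusted p = 1.8e-10). Ccl8 measured 10.51, 10.13, 9.61, 9.62 and 9.89 against 5.65, 6.11 and 7.74 (change 3.63 ± 0.32), and the day 0 value of 7.74 came from replicate 5 alone. Ccl12 (3.21 ± 0.24) and Ccl2 (3.13 ± 0.33) rose without overlap as well, and the lymphocyte attractant Ccl5 fell (−1.75 ± 0.40). The macrophage chemokine genes Ccl3 (0.65 ± 0.28) and Ccl4 (−0.02 ± 0.12) did not pass the test.

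Of 17 CXC and other chemokine genes, 8 rose and 4 fell (median change 0.46). The neutrophil attractant Cxcl5 measured 7.30, 9.21, 9.39, 7.45 and 9.48 at day 5 against 4.82, 5.20 and 5.82 at day 0 (change 3.30 ± 0.42, adjusted p = 1.1e-07), with replicates 1 and 4 well below the other 3 day 5 arrays and still above day 0. Cxcl2 rose by 2.97 ± 0.45 and Cxcl1 by 1.41 ± 0.24. Genes of interferon-induced T-cell attractants moved in opposite directions, Cxcl10 up by 1.43 ± 0.32 and Cxcl9 down (−1.36 ± 0.46). Cxcl9 lost its call when any 1 of 4 arrays was left out, with a change of −1.03 without day 5 replicate 5 (adjusted p = 0.10). The platelet chemokine gene Ppbp fell by more than any other member (−2.41 ± 0.55), and Cxcl12, which holds blood progenitors in the marrow, also fell (−0.57 ± 0.15).

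Cytokine genes were mixed, with 8 of 25 higher and 7 lower (median change −0.06). Il6, the cytokine of the acute phase, measured 5.75, 6.95, 8.15, 6.26 and 7.65 at day 5 against 3.26, 3.71 and 3.75 at day 0 (change 3.34 ± 0.42, adjusted p = 8.3e-08). The alarmin Il33 rose by 2.29 ± 0.20, Lif by 1.24 ± 0.26, the macrophage growth factor gene Csf1 by 0.78 ± 0.16 and Tnfsf11, which encodes the osteoclast inducer RANKL, by 0.54 ± 0.14. Tnf (−1.26 ± 0.19) and Il1a (−1.55 ± 0.28) fell, and Il1b had a change of −0.06 ± 0.34 and did not pass. On the receptor side of the Il6 family, the oncostatin M receptor gene Osmr (1.94 ± 0.17) and the shared chain Il6st (1.03 ± 0.11) rose. In all 8 of 23 cytokine receptor genes rose and 5 fell (median change 0.28), among the latter the granulocyte receptor Csf3r (−1.30 ± 0.26) and both interleukin 18 receptor chains, Il18r1 (−1.35 ± 0.28) and Il18rap (−1.13 ± 0.25). Of chemokine receptor genes 1 of 21 was higher and 9 lower (median change −0.34). Ackr3, a scavenging receptor for Cxcl12, rose (1.05 ± 0.18), and the eosinophil receptor Ccr3 (−1.77 ± 0.23) and the neutrophil receptor Cxcr2 (−1.55 ± 0.31) fell furthest, while the monocyte receptor Ccr2 measured −0.37 ± 0.20 and did not pass.

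The promoters of 3 of the inflammatory genes that rose are shown because each holds a match to the NF-kB motif searched. Windows run from 250 bases before to 50 bases after the annotated start (RefSeq, build GRCm38.p6), are written 5′ to 3′ along the gene, and carry the match in capitals. The motif was GGGANTTTC on both strands. None of the matches shown here or below overlapped a match of another motif searched. It occurred in 4 of 13 windows of the CXC and other chemokine list (30.8%), in 3 of 25 windows of the cytokine list, in 0 of 12 windows of the CC chemokine list, which cover 11 of its genes and not Ccl7, and in 365 of all 32851 windows (1.11%), where a gene can have several windows. Besides the GATA, E2F and CHR motifs given below, 5 others were searched on both strands, TGANTCA (AP-1, 7.81% of all windows), TTGCNNAA (C/EBP, 10.8%), GAAANNGAA (ISRE, 8.56%), CAGCTG (the E-box of muscle regulators, 16.3%) and TGTGGT (RUNX, 16.8%). These are counts of letters and not of bound sites.
Il6 (chr5:30012864-30013163, plus strand): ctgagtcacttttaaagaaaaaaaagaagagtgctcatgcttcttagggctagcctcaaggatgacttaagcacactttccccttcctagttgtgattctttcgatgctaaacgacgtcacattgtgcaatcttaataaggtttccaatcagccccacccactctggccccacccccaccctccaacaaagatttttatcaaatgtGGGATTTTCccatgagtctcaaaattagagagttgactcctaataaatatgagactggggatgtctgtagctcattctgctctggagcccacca
Cxcl1 (chr5:90890995-90891294, plus strand): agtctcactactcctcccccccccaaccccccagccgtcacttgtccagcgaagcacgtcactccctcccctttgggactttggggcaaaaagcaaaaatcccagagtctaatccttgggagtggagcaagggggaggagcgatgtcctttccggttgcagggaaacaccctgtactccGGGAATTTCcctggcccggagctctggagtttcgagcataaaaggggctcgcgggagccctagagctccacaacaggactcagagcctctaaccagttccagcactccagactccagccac
Cxcl2 (chr5:90903649-90903948, plus strand): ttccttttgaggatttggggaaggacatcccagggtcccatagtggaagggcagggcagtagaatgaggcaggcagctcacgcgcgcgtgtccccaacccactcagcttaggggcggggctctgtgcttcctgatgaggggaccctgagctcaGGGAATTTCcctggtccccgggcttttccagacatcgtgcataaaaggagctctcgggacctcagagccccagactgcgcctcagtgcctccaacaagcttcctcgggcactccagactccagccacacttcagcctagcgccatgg
The 3 genes rose by 3.34, 1.41 and 2.97.

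Receptors that sense damage and microbes rose in 7 of 21 cases and fell in 2 (median change 0.30), led by the lipopolysaccharide co-receptor gene Cd14 (2.79 ± 0.22). The fungal receptor gene Clec7a fell (−0.87 ± 0.18). Complement genes rose in 10 of 19 and fell in 1 (median change 0.65). The receptor gene C3ar1 led (3.12 ± 0.22), followed by Cfb of the alternative pathway (1.79 ± 0.19) and the C1q chains C1qa (1.41 ± 0.27), C1qb (1.55 ± 0.26) and C1qc (1.10 ± 0.22).

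Genes of lipid mediators moved in both directions, with 6 of 23 higher and 8 lower (median change 0.00). Ptgs2, the inducible cyclooxygenase required for normal fracture healing in mice, measured 8.78, 8.81, 9.26, 7.12 and 8.43 at day 5 against 4.88, 5.55 and 6.04 at day 0 (change 3.01 ± 0.32, adjusted p = 3.1e-09), and the prostaglandin E synthase gene Ptges rose by 0.88 ± 0.20. The lipoxygenase genes Alox12 (−2.67 ± 0.40), Alox5 (−1.53 ± 0.23) and Alox15 (−1.37 ± 0.10), the leukotriene enzyme Lta4h (−1.25 ± 0.17) and the thromboxane synthase Tbxas1 (−1.31 ± 0.21) fell. Of 17 clotting and fibrinolysis genes 9 rose and 3 fell (median change 0.57). The plasminogen activators Plau (1.69 ± 0.15) and Plat (1.30 ± 0.19) and the tissue factor gene F3 (0.64 ± 0.14) rose, and the coagulation factor gene F5, carried by platelets, fell (−2.18 ± 0.24).

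Macrophage genes rose mainly in the list of recruited and repair macrophages. Of its 20 measured members 12 rose and 3 fell (median change 1.20). Arg1, the arginase of repair macrophages, measured 5.98, 7.76, 8.01, 7.75 and 7.75 at day 5 against 4.60, 4.81 and 5.09 at day 0 (change 2.61 ± 0.27). The mannose receptor gene Mrc1 (1.44 ± 0.22), the scavenger receptor gene Msr1 (1.87 ± 0.19), Ms4a6d (2.77 ± 0.29) and Ms4a7 (1.98 ± 0.23) rose too. The alternative activation markers Retnla (−2.06 ± 0.34) and Chil3 (−1.55 ± 0.42) fell. The monocyte receptor gene Ccr2, given above, also belongs to this list and did not pass. Fn1, which rose, and Thbs1, which did not pass, are members of this list and of the matricellular list below. Genes of resident macrophages were divided, 7 of 17 higher and 6 lower (median change −0.02). Folr2 (1.91 ± 0.15) and the haemoglobin scavenger receptor Cd163 (1.54 ± 0.28) rose, whereas the iron exporter Slc40a1 (−1.72 ± 0.20), Spic (−1.13 ± 0.35) and Vcam1 (−0.74 ± 0.19), which mark the macrophages that recycle red cells, fell. MHC class II and dendritic-cell genes rose in 0 of 18 and fell in 6 (median change −0.28, −0.18 without day 0 replicate 5), with Clec9a of cross-presenting dendritic cells (−1.63 ± 0.21) and Siglech of plasmacytoid dendritic cells (−1.52 ± 0.19) lowest. Lysosomal genes rose in 15 of 24 and fell in 1 (median change 0.54), led by the cathepsin gene Ctsl (1.96 ± 0.14) and legumain, Lgmn (1.93 ± 0.17). The single member that fell was Ctse (−3.09 ± 0.57), a cathepsin that red-cell precursors also express.

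**Figure D2:**
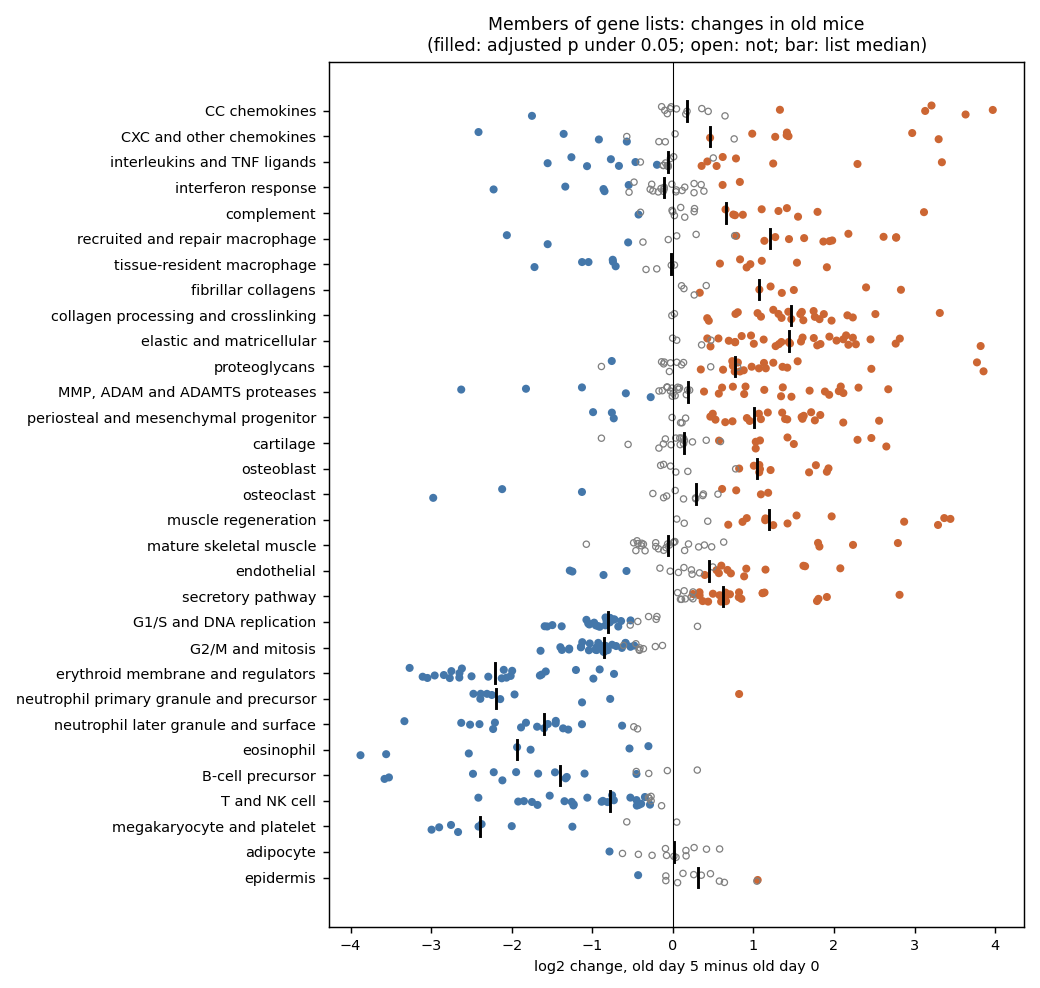
Log2 change from old day 0 to old day 5 (x axis) of each measured member of 31 gene lists (rows). Filled points passed the test, orange when higher and blue when lower at day 5, open grey points did not, and the black bar is the list's median. The list of collagen processing genes centres on 1.47, that of red-cell genes on −2.21 and that of mature skeletal muscle on −0.07.

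Matrix genes rose in most of their lists. Of 11 fibrillar collagen genes 7 rose and 0 fell (median change 1.07). Col3a1, the collagen of early repair tissue, measured 10.72, 10.95, 10.66, 8.91 and 10.51 at day 5 against 7.16, 7.40 and 8.26 at day 0 (change 2.83 ± 0.29, adjusted p = 9.7e-10) without overlap. Col5a2 rose by 2.40 ± 0.32. The bone collagen genes Col1a1 (1.07 ± 0.33) and Col1a2 (1.21 ± 0.32) rose by less, and their groups overlapped. The groups of Col5a2 overlapped as well. Col3a1 was the 1 member of 11 without overlap, against 18.3% of all genes. Without day 5 replicate 2 the change of Col1a1 was 0.86 (adjusted p = 0.051). Of 32 other collagen genes 11 rose and 1 fell (median change 0.05). All 3 major chains of the beaded-filament collagen, Col6a1 (2.20 ± 0.25), Col6a2 (1.96 ± 0.22) and Col6a3 (2.63 ± 0.24), rose without overlap, as did Col12a1 (2.21 ± 0.30) and Col14a1 (2.07 ± 0.26).

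The enzymes that finish collagen moved together, 23 of 25 higher and 0 lower (median change 1.47). Lox, the lysyl oxidase that starts crosslinking, measured 10.36, 10.86, 10.53, 9.37 and 10.33 at day 5 against 6.15, 6.92 and 8.03 at day 0 (change 3.31 ± 0.25, adjusted p = 1.5e-12). Plod2, which sets the crosslinks of scar collagen, rose by 2.51 ± 0.34, the prolyl hydroxylase gene P4ha3 by 1.97 ± 0.23, the propeptidase gene Bmp1 by 1.60 ± 0.22 and the collagen chaperone gene Serpinh1 by 1.62 ± 0.25. The general secretory pathway rose in 24 of 32 members and fell in 0 (median change 0.62), with Kdelr3 (2.81 ± 0.28), Sec24d, which loads procollagen into transport vesicles (1.79 ± 0.19), and the collagen-secretion regulator Creb3l1 (1.91 ± 0.29) among the largest.

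Proteoglycan genes rose in 19 of 31 and fell in 1 (median change 0.77). Besides Prg4 and Vcan, the cartilage aggrecan gene Acan rose (2.46 ± 0.48), and Srgn, the proteoglycan of blood-cell granules, fell (−0.76 ± 0.18). Among 21 hyaluronan genes 10 rose and 2 fell (median change 0.22). Has2, the main hyaluronan synthase, measured 7.07, 8.25, 8.40, 6.33 and 7.66 at day 5 against 4.78, 4.86 and 5.03 at day 0 (change 2.65 ± 0.32). Ptx3, which builds hyaluronan-rich matrix together with the Tnfaip6 product, rose by 2.49 ± 0.22 and the link protein gene Hapln1 by 2.29 ± 0.50. Elastic-fibre and matricellular genes rose in 31 of 35 and fell in 0 (median change 1.44). Fbln2 (2.76 ± 0.21), Mfap5 (2.82 ± 0.24), Thbs2 (2.45 ± 0.29), the periosteal gene Postn (2.11 ± 0.32) and the fibronectin gene Fn1 (2.18 ± 0.19) were among them, and Thbs1, which platelets carry, had a change of 0.05 ± 0.20 and did not pass.

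Genes of proteases that cut this matrix moved in both directions. Of 39 genes 18 rose and 5 fell (median change 0.18). The stromal proteases Mmp3 (2.67 ± 0.22), Mmp2 (2.12 ± 0.24), Mmp14 (2.06 ± 0.24), Adam12 (2.30 ± 0.24) and Adamts1 (1.89 ± 0.18) rose. Mmp8 (−2.63 ± 0.32) and Mmp25 (−1.82 ± 0.27), known from neutrophils, and Mmp9 (−1.13 ± 0.37), known from neutrophils and osteoclasts, fell. Mmp9 did not pass without day 5 replicate 4 (−0.79, adjusted p = 0.093) or replicate 5 (−0.96, adjusted p = 0.060). Of 14 protease inhibitor genes 5 rose and 2 fell (median change −0.03). Besides Timp1, Serpina3n rose by 3.17 ± 0.26 and Timp2 by 1.09 ± 0.16, and Timp3 had a change of −0.27 ± 0.21 and did not pass. Integrin genes split too, 9 of 26 higher and 10 lower (median change 0.08). The fibronectin receptor chain Itga5 (1.87 ± 0.20) and the collagen receptor chain Itga11 (1.22 ± 0.25) rose, and the platelet chains Itga2b (−1.9995 ± 0.29) and Itgb3 (−2.12 ± 0.26) and the leukocyte chains Itgal (−1.66 ± 0.27) and Itgb2 (−1.21 ± 0.19) fell.

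Of 18 TGF-beta and BMP ligand genes 6 rose and 0 fell (median change 0.19), a share of called genes close to the 34.1% of all genes. Tgfb3 (1.94 ± 0.23), Tgfb2 (1.17 ± 0.22) and the activin gene Inhba (1.18 ± 0.23) rose. Bmp2, the ligand without which mouse fractures do not heal, measured 6.24, 6.22, 6.33, 5.89 and 5.84 at day 5 against 5.89, 6.23 and 6.58 at day 0 (change −0.14 ± 0.16, adjusted p = 0.54), and did not pass. Receptors, antagonists and targets rose in 15 of 29 and fell in 2 (median change 0.49), with the secreted modulator Fstl1 (2.95 ± 0.20) and the matrix gene Tgfbi (1.59 ± 0.17) furthest and the BMP antagonist Grem1 lower (−0.76 ± 0.17). Of 22 Wnt and R-spondin ligand genes 1 rose (Wnt5a, 0.72 ± 0.19) and 1 fell (median change −0.10), a share below that of all genes. Wnt receptors, antagonists and targets rose in 9 of 29 and fell in 1 (median change 0.28). The antagonists Sfrp1, Sfrp2 (3.28 ± 0.31) and Frzb (1.30 ± 0.35) led, the receptor genes Fzd1 (1.14 ± 0.16), Fzd2 (1.24 ± 0.19) and Fzd4 (1.24 ± 0.19) followed, and the target Axin2 measured 0.06 ± 0.13 and did not pass.

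Of 28 FGF, PDGF, VEGF, IGF and EGF ligand genes 10 rose and 3 fell (median change 0.04). Vegfd measured 7.62, 7.67, 8.13, 8.72 and 8.29 at day 5 against 5.16, 5.62 and 5.95 at day 0 (change 2.46 ± 0.22), while Vegfa, the main angiogenic ligand, measured 7.19, 7.74, 7.96, 7.86 and 7.75 against 7.28, 7.81 and 8.31 (change −0.12 ± 0.15, adjusted p = 0.59). Every day 5 array lay above day 0 for Vegfd, and Vegfa did not pass. Igf1 (1.37 ± 0.19) and Igf2 (1.61 ± 0.27) rose, as did Fgf7 (1.22 ± 0.25), and the osteocyte hormone gene Fgf23 fell (−0.48 ± 0.10). Receptors and IGF-binding proteins rose in 15 of 27 and fell in 1 (median change 0.41), with Igfbp3 (1.93 ± 0.21), Pdgfra (1.72 ± 0.17) and Egfr (1.65 ± 0.16) among those higher. Hedgehog genes rose in 5 of 12 and fell in 0 (median change 0.25). Gli3 rose (1.49 ± 0.19), and Ihh, the ligand of growth cartilage (−0.12 ± 0.18), and the target Gli1 (0.10 ± 0.13) did not pass.

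Genes of periosteal and mesenchymal progenitors rose in 21 of 28 and fell in 3 (median change 1.01). The contractile gene Acta2 measured 9.53, 9.64, 9.37, 8.10 and 9.06 at day 5 against 6.09, 6.53 and 7.08 at day 0 (change 2.56 ± 0.25), the limb mesenchyme factors Prrx1 (1.39 ± 0.16) and Twist1 (1.36 ± 0.23) rose, and Scx, the tendon and ligament factor, rose by 1.60 ± 0.21. Lepr, which marks the marrow stroma, fell (−0.99 ± 0.24). Cartilage genes rose in 9 of 25 and fell in 0 (median change 0.14, 0.26 without day 0 replicate 1 and 0.29 without day 5 replicate 5). This called share was close to the 34.1% of all genes. Sox9, the master factor of cartilage, rose by 1.03 ± 0.21 and measured 7.50, 7.37, 7.14, 6.34 and 6.63 at day 5 against 5.79, 5.93 and 6.24 at day 0. Acan and Panx3 (2.65 ± 0.40) rose with it, whereas the structural genes Col2a1 (0.41 ± 0.35), Col9a1 (0.24 ± 0.25) and the hypertrophic gene Col10a1 (0.14 ± 0.37) did not pass. Genes of this lineage stood on both sides of the threshold at day 5, and differences between them were not tested. Mean levels of the list ran from 5.78 to 6.78 over the day 5 arrays, in the order replicate 5, 4, 3, 2, 1.

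Osteoblast genes rose in 10 of 16 and fell in 0 (median change 1.04), but only 1 member had groups without overlap. Alpl, bone alkaline phosphatase, measured 9.06, 9.75, 9.05, 7.77 and 7.91 at day 5 against 6.59, 6.89 and 8.01 at day 0 (change 1.69 ± 0.36, adjusted p = 0.00024). Ibsp, bone sialoprotein, measured 11.82, 12.44, 12.12, 10.90 and 11.01 against 9.26, 9.76 and 10.96 (change 1.77 ± 0.27). Day 5 replicates 1 to 3 lay above the day 0 range of both genes, replicate 4 lay within it for both, and replicate 5 lay within it for Alpl and just above it for Ibsp. The osteoblast factor gene Sp7 rose by 1.07 ± 0.34 and Ifitm5, the member without overlap, by 1.93 ± 0.35. Without day 5 replicate 2 the change of Sp7 was 0.82 and did not pass (adjusted p = 0.066). List means were 8.86, 9.24, 8.75, 7.76 and 8.05 in day 5 replicates 1 to 5 and 7.32 to 8.33 at day 0, where replicate 1 was highest. Of 13 osteocyte genes 1 rose, Pdpn (2.70 ± 0.23), and 2 fell, Sost (−0.37 ± 0.12) and Fgf23. Sost did not pass without day 0 replicate 1 (−0.31, adjusted p = 0.059). Pdpn encodes podoplanin, the ligand of the platelet receptor encoded by Clec1b, and is also made by fibroblasts. Osteoclast genes rose in 4 of 17 and fell in 3 (median change 0.28, and 0.18, 0.14 and 0.05 without day 0 replicate 4, day 5 replicate 1 and day 5 replicate 2 in turn). The fusion gene Ocstamp (1.18 ± 0.35) and the bone-resorbing protease Ctsk (1.09 ± 0.30) rose. The 3 that fell, Car2 (−2.97 ± 0.50), Itgb3 and Mmp9, are also genes of red cells, platelets and neutrophils.

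Muscle genes divided into a regenerating set that rose and a mature set that mostly did not pass. Of 16 regeneration genes 13 rose and 0 fell (median change 1.20). Myh3, the embryonic myosin heavy chain, measured 8.92, 9.02, 8.35, 6.64 and 7.91 at day 5 against 4.52, 4.76 and 4.86 at day 0 (change 3.44 ± 0.34, adjusted p = 5.1e-10). Mymk, whose product fuses myoblasts, measured 9.42, 9.43, 8.96, 7.39 and 9.004 against 5.29, 5.42 and 5.81 (change 3.37 ± 0.28), and the differentiation factor Myog rose by 2.87 ± 0.28. Replicate 4 was lowest of the day 5 arrays for Myh3 and Mymk, yet above every day 0 array. The stem-cell genes Pax7 (0.05 ± 0.10) and Myf5 (0.43 ± 0.19) did not pass. Of 29 mature muscle genes 4 rose and 0 fell (median change −0.07). The 4 were Tnnc1 (2.79 ± 0.36), Tnni1 (2.24 ± 0.33) and Tnnt1 (1.80 ± 0.28), troponins of slow fibres that developing fibres also use, and the atrophy ligase gene Trim63 (1.82 ± 0.41). The fast myosin gene Myh4 (−0.04 ± 0.32) and the creatine kinase gene Ckm (−0.21 ± 0.29) did not pass. List means of mature muscle were 9.51, 9.37, 9.84, 10.18 and 10.17 in day 5 replicates 1 to 5 and 8.92 to 10.02 at day 0, and this spread within each day was larger than the list's median change.

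Vessel genes rose in 12 of 24 and fell in 4 (median change 0.45). The apelin receptor gene Aplnr (2.08 ± 0.22), the junction gene Cdh5 (1.64 ± 0.16) and Emcn, a marker of bone-coupled capillaries (1.62 ± 0.17), rose without overlap. The sinusoid gene Stab2 (−0.86 ± 0.25) and the von Willebrand factor gene Vwf, shared with platelets (−1.25 ± 0.19), fell. Pericyte and smooth muscle genes rose in 7 of 14 and fell in 0 (median change 0.49). Of 13 adipocyte genes 0 rose and 1 fell (Pparg, −0.79 ± 0.17), with list means of 6.81, 6.65, 7.08, 7.89 and 7.25 at day 5 and 6.89 to 7.38 at day 0, highest in day 5 replicate 4. Schwann-cell genes rose in 2 of 13 and fell in 4 (median change −0.06).

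Every red-cell gene of the list fell. All 24 measured members were called lower (0 higher, median change −2.21), against 15.8% of all genes, and 22 had no overlap. Rhag, a subunit of the Rh antigen complex, measured 7.14, 5.18, 8.18, 5.49 and 4.72 in day 5 replicates 1 to 5 against 8.69, 9.57 and 9.82 (lowest, median, highest) at day 0 (change −3.27 ± 0.64, adjusted p = 0.0001). Rhd measured 7.37, 5.84, 8.14, 5.95 and 4.89 against 9.03, 9.71 and 9.86 (change −3.10 ± 0.53), and Kel, a blood-group protease, 7.38, 5.26, 7.42, 5.49 and 4.83 against 8.31, 9.21 and 9.45 (change −3.05 ± 0.51). In all 3 genes replicates 1 and 3 held the highest day 5 levels. The same 2 arrays had the highest list means at day 5, 7.31, 6.12, 7.74, 6.32 and 5.82 in replicates 1 to 5, against 8.35 to 9.03 at day 0. The lineage regulators Gata1 (−2.06 ± 0.32), Klf1 (−2.01 ± 0.35) and Nfe2 (−2.29 ± 0.37) fell too, as did the band 3 gene Slc4a1 (−2.75 ± 0.64), Cldn13 (−2.96 ± 0.54), the urea transporter gene Slc14a1 (−3.0004 ± 0.46) and the carbonic anhydrase genes Car1 (−2.84 ± 0.63) and Car2. Haem and iron genes fell in 13 of 17 and rose in 0 (median change −0.93), with the first enzyme of red-cell haem synthesis, Alas2, at −2.44 ± 0.37, whereas the ferritin genes Fth1 (0.11 ± 0.06) and Ftl1 (0.14 ± 0.19) did not pass.

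Platelet genes fell in 8 of 10 and rose in 0 (median change −2.39). Gp5, a chain of the von Willebrand factor receptor, measured 7.02, 6.09, 7.25, 5.62 and 5.19 at day 5 against 8.40, 9.24 and 9.93 at day 0 (change −2.99 ± 0.38, adjusted p = 7.2e-08). Clec1b fell by more than most members (−2.90 ± 0.34), and Pf4, the platelet chemokine that macrophages can also make, had a change of −0.57 ± 0.27 and did not pass.

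Red-cell and platelet genes share GATA factors as regulators in the mouse, and 3 promoters of members that fell are shown with matches to the letters AGATAA, both strands searched, in capitals. The windows are of the same build and extent as above. A match occurred in 8 of 21 windows of the red-cell list (38.1%), in 4 of 8 of the platelet list (50.0%) and in 3672 of all 32851 windows (11.2%). Some other lists also lay above the last share, with 2 of 6 eosinophil, 4 of 12 basophil and mast-cell and 4 of 14 MHC II windows. Others lay below it, with 0 of 9 primary granule and 1 of 14 B-cell precursor windows.
Kel (chr6:41704276-41704575, minus strand): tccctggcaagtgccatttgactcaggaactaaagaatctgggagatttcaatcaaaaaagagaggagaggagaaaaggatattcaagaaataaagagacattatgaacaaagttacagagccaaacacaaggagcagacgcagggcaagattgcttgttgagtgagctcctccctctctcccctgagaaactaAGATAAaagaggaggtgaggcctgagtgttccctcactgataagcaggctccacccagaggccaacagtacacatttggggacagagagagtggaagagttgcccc
Rhd (chr4:134864286-134864585, plus strand): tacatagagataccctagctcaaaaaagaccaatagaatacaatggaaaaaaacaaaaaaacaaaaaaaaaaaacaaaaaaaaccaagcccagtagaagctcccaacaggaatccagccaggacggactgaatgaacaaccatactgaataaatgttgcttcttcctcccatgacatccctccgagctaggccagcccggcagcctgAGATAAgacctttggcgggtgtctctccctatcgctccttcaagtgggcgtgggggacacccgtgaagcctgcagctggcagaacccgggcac
Gp5 (chr16:30310732-30311031, minus strand): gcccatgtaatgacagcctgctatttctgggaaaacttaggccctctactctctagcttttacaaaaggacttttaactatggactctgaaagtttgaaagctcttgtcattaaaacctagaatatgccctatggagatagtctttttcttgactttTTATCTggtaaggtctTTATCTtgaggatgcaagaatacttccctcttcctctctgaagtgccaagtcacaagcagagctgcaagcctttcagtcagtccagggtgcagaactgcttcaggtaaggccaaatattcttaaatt
The factor gene Gata1 itself fell by −2.06 ± 0.32 as given above, and binding was not measured.

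Granulocyte genes fell in all their lists. Of 10 genes of primary granules and precursors 9 fell and 1 rose (median change −2.19), the exception being Ctsc (0.82 ± 0.16), a cathepsin that macrophages also make. Elane, neutrophil elastase (−2.47 ± 0.43), and Mpo, myeloperoxidase (−2.25 ± 0.45), fell without overlap. Of 19 later granule and surface genes 17 fell and 0 rose (median change −1.60). Ly6g, the surface marker of mouse neutrophils, measured 7.64, 7.77, 8.46, 5.41 and 6.02 at day 5 against 9.79, 10.27 and 11.05 at day 0 (change −3.33 ± 0.51, adjusted p = 2.6e-06). S100a8, which with S100a9 encodes the neutrophil protein calprotectin, had a change of −0.44 ± 0.18 and did not pass, and S100a9 fell (−0.63 ± 0.17). Neutrophil list means at day 5 followed the red-cell list in placing replicate 3 highest, at 8.43, 8.68, 9.13, 7.61 and 7.84 in replicates 1 to 5 against 9.73 to 10.37 at day 0.

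Eosinophil genes fell in 7 of 7 (median change −1.93). Ear6, an eosinophil ribonuclease and the gene that fell furthest, measured 3.20, 4.67, 3.42, 3.69 and 3.22 at day 5 against 5.72, 7.82 and 8.79 at day 0 (change −3.88 ± 0.44, 14.7-fold lower, adjusted p = 9.3e-09). Prg2, the major basic protein of eosinophil granules, measured 6.50, 8.61, 7.09, 5.49 and 6.28 against 9.49, 10.49 and 11.22 (change −3.56 ± 0.49), with replicate 2 highest at day 5. Basophil and mast-cell genes fell in 8 of 12 and rose in 0 (median change −0.65). The basophil protease genes Mcpt8 (−3.14 ± 0.35) and Prss34 (−2.51 ± 0.34) fell, while the mast-cell proteases Mcpt4 (0.36 ± 0.21), Cma1 (0.09 ± 0.12) and Tpsb2 (−0.08 ± 0.12) did not pass.

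Lymphoid genes fell as well. B-cell precursor genes fell in 12 of 16 and rose in 0 (median change −1.40). Vpreb1 of the surrogate light chain measured 4.56, 5.11, 4.71, 5.21 and 5.04 at day 5 against 7.80, 8.56 and 9.32 at day 0 (change −3.58 ± 0.32, adjusted p = 7.5e-11) and its partner Vpreb3 4.46, 4.16, 4.39, 4.82 and 4.62 against 6.95, 8.14 and 8.77 (change −3.52 ± 0.31). The day 5 arrays of both lay close together and far below day 0. Mature B-cell genes fell in 13 of 14 (median change −1.20), among them Ms4a1, which encodes CD20 (−2.26 ± 0.37). At day 0 the means of this list ran over 5.64 to 7.41, lowest in replicate 4 and highest in replicate 5. Plasma-cell genes rose in 2 of 10 and fell in 5 (median change −0.29). The antibody joining chain gene Jchain fell (−2.80 ± 0.47), and the 2 that rose, Fkbp11 (2.26 ± 0.23) and Sdc1 (1.25 ± 0.18), are also made by other secretory or stromal cells. T and NK cell genes fell in 23 of 28 and rose in 0 (median change −0.78). Nkg7 (−2.41 ± 0.45), the T-cell receptor chain genes Cd3d (−1.92 ± 0.43) and Cd3g (−1.68 ± 0.33), and Ccl5, given above, were among the lowest.

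Genes of blood progenitors rose in 4 of 15 and fell in 6 (median change −0.33, −0.20 without day 0 replicate 5). Myb (−2.48 ± 0.33) and Kit (−1.02 ± 0.19) fell, and Cd34, which vessels share, rose (1.18 ± 0.15). Marrow niche genes rose in 1 of 12 and fell in 5 (median change −0.22, −0.35 without day 5 replicate 4). Cxcl12 and Lepr, named above, were among those that fell, and the stem-cell factor gene Kitl (0.10 ± 0.17) did not pass.

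Proliferation genes were lower at day 5 than at day 0, as were the red-cell, neutrophil and B-cell lists above. A different share of marrow in the extracts cannot be told apart from fewer dividing cells here. Of 29 G1/S and DNA replication genes 23 fell and 0 rose (median change −0.80), and of 36 G2/M and mitosis genes 28 fell and 0 rose (median change −0.85). Mki67, the Ki-67 gene, measured 9.53, 9.01, 9.50, 7.89 and 8.35 at day 5 against 9.98, 10.63 and 10.72 at day 0 (change −1.64 ± 0.27, adjusted p = 8e-06). The helicase subunit gene Mcm7 measured 7.45, 7.15, 7.72, 6.31 and 6.84 against 8.10, 8.50 and 8.70 (change −1.38 ± 0.23). Mean levels of the G2/M list were 7.63, 7.70, 7.83, 6.51 and 7.16 in day 5 replicates 1 to 5 and 7.76 to 8.43 at day 0. Replicates 4 and 5 were lowest, and without replicate 4 21 of the 36 members fell (median change −0.66). The list means of both neutrophil lists, fibrillar collagens and osteoblast genes were also lowest in replicates 4 and 5. Those of the red-cell list were lowest in replicates 5 (5.82) and 2 (6.12). The part of any of these lists in this result was not tested.

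Promoters of a replication gene and a mitosis gene are shown because each holds a match to the E2F or the CHR motif searched. The E2F motif TTTNGCGC, both strands, occurred in 11 of 30 windows of the G1/S list (36.7%), in 2 of 32 of the G2/M list (6.25%) and in 452 of all 32851 (1.38%). The CHR motif TTTGAA, both strands, occurred in 26 of 32 windows of the G2/M list (81.3%), in 4 of 30 of the G1/S list (13.3%) and in 5878 of all windows (17.9%). Capitals mark the E2F match in Mcm7 and the 2 CHR matches in Mki67.
Mcm7 (chr5:138171834-138172133, minus strand): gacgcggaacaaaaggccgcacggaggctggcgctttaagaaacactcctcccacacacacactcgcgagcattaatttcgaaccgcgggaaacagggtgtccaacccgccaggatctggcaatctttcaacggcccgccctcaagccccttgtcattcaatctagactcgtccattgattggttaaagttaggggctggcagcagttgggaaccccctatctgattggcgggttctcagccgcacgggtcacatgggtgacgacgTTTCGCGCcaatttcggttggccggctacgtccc
Mki67 (chr7:135716330-135716629, minus strand): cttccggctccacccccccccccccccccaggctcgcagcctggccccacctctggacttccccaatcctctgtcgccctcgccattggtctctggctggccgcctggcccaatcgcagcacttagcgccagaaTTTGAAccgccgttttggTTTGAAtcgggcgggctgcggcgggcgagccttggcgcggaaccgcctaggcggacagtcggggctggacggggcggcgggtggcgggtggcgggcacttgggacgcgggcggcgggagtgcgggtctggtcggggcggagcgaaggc
Both genes fell, by the values given above.

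Interferon-response genes mostly did not pass, 2 of 26 higher and 5 lower (median change −0.11). Ifit3 rose (0.83 ± 0.32) and Rsad2 fell (−2.22 ± 0.34). Ifit3 lost its call when any 1 of 8 arrays was left out, with a change of 0.71 without day 0 replicate 5 (adjusted p = 0.098). List means were 6.80, 6.54, 6.32, 6.41 and 6.67 at day 5 and 6.20 to 7.46 at day 0, where replicate 4 held the highest value of all 11 arrays (7.46). Without that array 2 members rose and 5 fell (median change 0.03). Without day 0 replicate 6 the median change was −0.24.

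Of 23 hypoxia and glycolysis genes 7 rose and 0 fell (median change 0.12), a called share close to the 34.1% of all genes. Hif1a, the oxygen-sensing factor, measured 9.58, 10.12, 9.89, 8.45 and 9.67 at day 5 against 7.43, 7.69 and 8.005 at day 0 (change 1.85 ± 0.22), and Ddit4 (1.77 ± 0.19), Adm (1.15 ± 0.18) and the glucose transporter gene Slc2a1 (0.97 ± 0.14) rose, whereas Ldha (0.03 ± 0.11) and Car9 (−0.16 ± 0.12) did not pass. Respiration genes rose in 0 of 29 and fell in 1 (median change −0.12). The metal-binding genes Mt2 (2.36 ± 0.30) and Mt1 (1.41 ± 0.17) and the extracellular superoxide dismutase gene Sod3 (2.26 ± 0.17) led the list of metallothionein and oxidative stress genes, in which 8 of 18 rose and 3 fell (median change 0.37). Among the latter were both subunits of the enzyme that starts glutathione synthesis, Gclc (−1.09 ± 0.23) and Gclm (−0.97 ± 0.26).

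Immediate early and heat shock genes rose in 14 of 25 and fell in 2 (median change 0.43), with Ier3 (1.58 ± 0.21) and Jun (1.26 ± 0.21) furthest. Without day 5 replicate 5 only 9 of them rose. Clock genes rose in 8 of 16 and fell in 0 (median change 0.24), with Bhlhe40 (1.28 ± 0.20) and Per1 (1.22 ± 0.26) furthest and the core activator Arntl at −0.09 ± 0.13, which did not pass. No source used here gives the hour of harvest. Of 13 p53 and senescence genes 4 rose and 2 fell (median change 0.21, 0.10 without day 5 replicate 4). The cell-cycle inhibitor gene Cdkn2a, which marks ageing cells, had a change of 0.04 ± 0.10 and did not pass. Cholesterol and fatty acid synthesis genes rose in 5 of 20 and fell in 0 (median change 0.25).

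**Figure D3:**
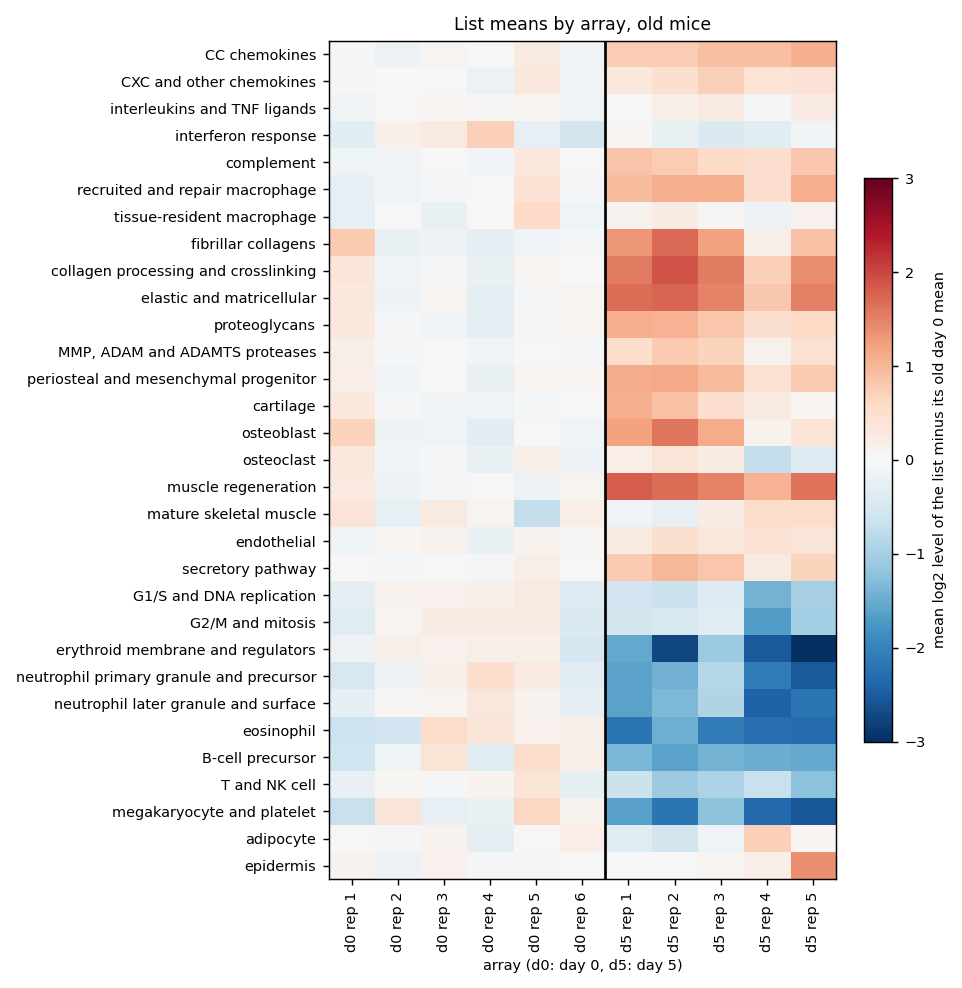
Mean log2 level of 31 gene lists (rows) in each of the 11 old arrays (columns), drawn as the difference from the list's old day 0 mean, red when higher and blue when lower. Day 5 replicate 4 is paler than its group in the matrix rows and bluest in the proliferation rows, with list means of 7.66 for elastic and matricellular genes and 6.51 for G2/M genes. Day 5 replicate 5 stands out in the epidermis row (5.90).

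The day 5 arrays differed among themselves along several lists at once. Replicate 4 had the lowest list means at day 5 for fibrillar collagens (7.09 against 7.78 to 8.60 in the other 4), for collagen processing (7.16, others 7.84 to 8.35), for recruited macrophages (8.31, others 8.75 to 8.90) and for both proliferation lists. It also had the highest mean of adipocyte genes (7.89, others 6.65 to 7.25). Replicate 5 carried epidermal genes, with a list mean of 5.90 against 4.50 to 4.70 in the others. In that array the skin keratin gene Krt14 measured 8.58, against 4.61, 4.65, 4.77 and 4.61 in replicates 1 to 4, and its difference between the days did not pass (1.04 ± 0.44). Of 12 epidermal genes 1 rose and 1 fell, and without replicate 5 the list's median change was 0.03 instead of 0.31. Without replicate 4 the counts of the matrix lists were close to those with it. Fibrillar collagens then rose in 7 of 11 (median change 1.42), collagen processing genes in 23 of 25 and osteoblast genes in 11 of 16 (median change 1.21).

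The same step in young mice, 5 arrays at each day from 5-month-old animals, shares no array with the old comparison. Young sample names begin with a digit in 3 of 5 day 0 arrays and 0 of 5 day 5 arrays. The kind of name is thus partly tied to the young step too. Lettered young names begin with H at day 0 and with H or P at day 5, unlike those of old mice. The young step called 7229 genes (36.3%), 3987 (20.0%) higher and 3242 (16.3%) lower. The test of the difference between the old and the young step called 0 of 19938 in limma (0.0%), and also 0 with the kind of name as a covariate. Without that covariate 1562 (7.83%) had an unadjusted p under 0.05. The smallest adjusted p was 0.33, and no gene can be called different between the ages by this test. The 5 genes with the smallest unadjusted p are given as values. Ccl8 was higher at day 5 by 3.63 ± 0.32 in old and 5.69 ± 0.33 in young mice (difference −2.06 ± 0.46, unadjusted p = 7.2e-05, adjusted p = 0.33). The log2 changes in old and young mice were 0.87 ± 0.18 and 2.06 ± 0.19 for the macrophage gene Aif1 (difference −1.19 ± 0.26) and 0.26 ± 0.10 and 0.99 ± 0.11 for the calcium-signalling kinase gene Camk1 (difference −0.73 ± 0.15). They were −0.49 ± 0.19 and −1.72 ± 0.19 for the chromatin organiser gene Satb1 (difference 1.23 ± 0.27) and 0.80 ± 0.15 and −0.18 ± 0.16 for the adenylate cyclase gene Adcy2 (difference 0.98 ± 0.22). Camk1 did not pass in old mice, and Satb1 lost its call without any 1 of 7 arrays.

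Some lists had unlike counts at the 2 ages, although no member passed the test of the difference. Interferon-response genes rose in 2 and fell in 5 of 26 in old mice and rose in 15 and fell in 3 in young mice (medians −0.11 and 0.54). The list means of old and young mice were 6.75 and 6.15 at day 0, and 6.55 and 6.64 at day 5. Mature muscle genes fell in 0 of 29 in old and 14 in young mice (medians −0.07 and −0.68). Their list means in old and young mice were 9.62 and 9.44 at day 0, and 9.81 and 9.04 at day 5. T and NK cell genes fell in 23 of 28 in old and 9 in young mice (medians −0.78 and −0.34), and G2/M genes in 28 of 36 and 16 (medians −0.85 and −0.49). In old and young mice the T and NK means were 5.87 and 5.41 at day 0, and 4.96 and 4.85 at day 5. Those of the G2/M list were 8.19 and 8.33 at day 0, and 7.37 and 7.80 at day 5. Red-cell genes fell in all 24 at both ages, with medians of −2.21 in old and −3.10 in young mice. Recruited macrophage genes had medians of 1.20 and 1.9997. In old and young mice the red-cell means were 8.85 and 8.96 at day 0, and 6.66 and 5.84 at day 5. Those of recruited macrophages were 7.80 and 7.51 at day 0, and 8.75 and 8.98 at day 5.

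**Figure D4:**
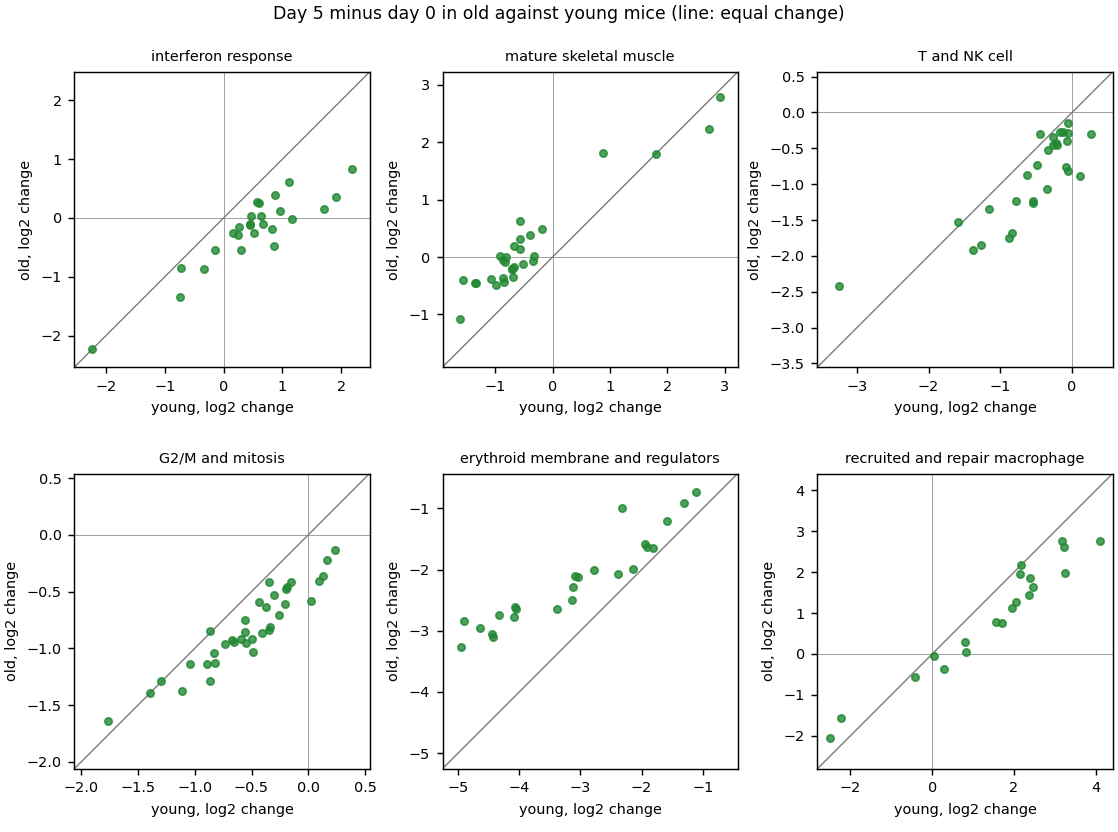
Log2 change from day 0 to day 5 in young (x axis) against old mice (y axis) for the members of 6 gene lists, 1 point per gene, with a grey line of equal change. Points of the interferon list lie mostly below the line (medians −0.11 old, 0.54 young) and those of the red-cell list above it (−2.21 and −3.10). No gene passed the test of the difference.

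Levels of the same genes were also measured at later days of the old mice. The comparison of day 10 with day 5 uses the same day 5 arrays, so its changes are not independent of those above, and the values are given side by side. It called 5082 genes (25.5%), 2847 (14.3%) higher and 2235 (11.2%) lower at day 10. All 5 arrays of each later day have names that begin with a digit, against 1 of the 5 day 5 arrays, so this step can hardly be told apart from the kind of name. With the kind of name as a covariate in the fit over all 41 arrays, chosen after seeing the data, 3390 genes were called, 1973 higher and 1417 lower. Il6 averaged 3.61 ± 0.20 (SD) at day 0, 6.95 ± 0.98 at day 5, 4.95 ± 1.35 at day 10 and 3.52 ± 0.08 at day 20, with 5 arrays at each later day, and its step from day 5 to day 10 was −2.002 ± 0.44 (adjusted p = 0.00075), or −1.75 with that covariate (adjusted p = 0.021). Cxcl5 averaged 5.27 ± 0.40, 8.56 ± 1.09, 5.10 ± 1.13 and 4.57 ± 0.48 at those days. At day 20 the mean of neither gene was above its day 0 mean.

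Matrix genes followed other courses. Timp1 averaged 11.39 ± 0.64 at day 5, 11.21 ± 0.17 at day 10 and 10.69 ± 0.73 at day 20, and its step from day 5 to day 10 (−0.17 ± 0.29) did not pass. C1qtnf3 went on rising, from 8.25 ± 1.30 to 11.21 ± 0.43 (step 2.97 ± 0.44, adjusted p = 3.5e-06), and was at 6.89 ± 0.65 at day 20. Prg4 fell again from 10.55 ± 0.25 to 8.13 ± 0.72 (step −2.42 ± 0.42, adjusted p = 4.5e-05). From day 5 to day 10 23 of 25 cartilage genes, 10 of 11 fibrillar collagen genes and 13 of 16 osteoblast genes rose, and Col2a1, which had not passed at day 5, rose by 3.49 ± 0.37. With the kind of name as a covariate the counts were 23, 7 and 8. These lists share members, such as Col1a1 in the fibrillar collagen and osteoblast lists, so the counts are not of separate genes. Over the same step 10 of 17 CC chemokine genes and 10 of 16 muscle regeneration genes fell, among them Mymk (−1.48 ± 0.29), or 8 and 6 with the covariate.

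The marrow genes Rhag, Ly6g and Vpreb1 had means below day 0 at each later day. From day 5 to day 10 16 of 24 red-cell genes fell and 0 rose, or 14 and 0 with the kind of name as a covariate. Rhag averaged 9.41 ± 0.45 at day 0, 6.14 ± 1.46 at day 5, 4.01 ± 0.36 at day 10 and 8.15 ± 1.46 at day 20. Ly6g averaged 7.06 ± 1.28, 6.43 ± 0.87 and 8.22 ± 0.69 at the 3 fracture days, and Vpreb1 4.93 ± 0.28, 5.52 ± 0.29 and 6.47 ± 0.82, against 10.39 ± 0.44 and 8.50 ± 0.53 at day 0. G2/M genes fell in 16 of 36 between day 5 and day 10 and rose in 0, or 13 and 0 with that covariate.

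**Figure D5:**
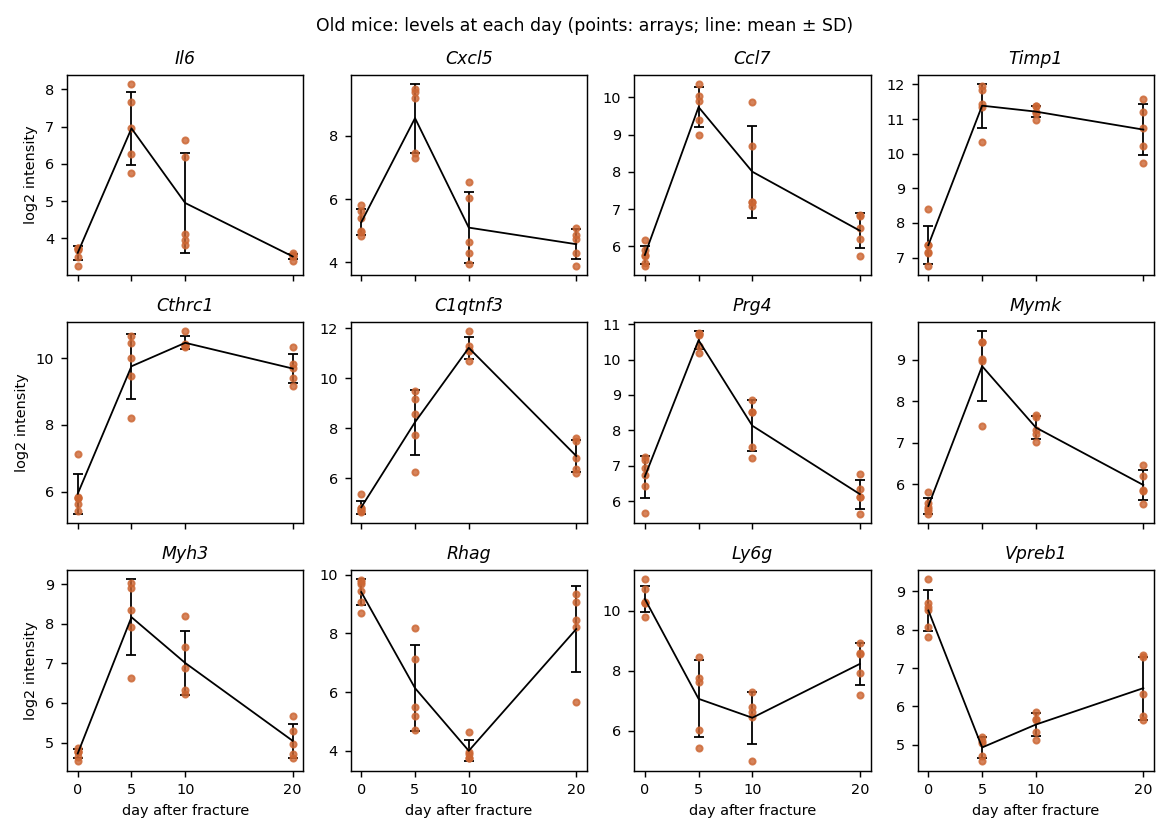
Log2 normalized intensity (y axis) of 12 genes in old mice at days 0, 5, 10 and 20 after fracture (x axis), with 1 point per array and a line through the means with SD bars. Il6 peaks at day 5 (mean 6.95 ± 0.98), C1qtnf3 at day 10 (11.21 ± 0.43), Timp1 stays high, and Rhag is lowest at day 10 (4.01 ± 0.36).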

How the data were processed

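RNA of 41 mouse bone or callus samples was hybridised to Affymetrix Mouse Gene 1.0 ST arrays. The deposited values are log2 intensities normalized by the authors, and Partek is named in the submitters' processing notes. The version of that program and how background was corrected and probes summarised were not given in the sources used here. The authors' deposited table also holds the p-values and step-up p-values of their ANOVA and a linear ratio (fold) for each contrast, which were used only as descriptions. Both deposited tables held the same values, with 0 cells that differed.

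Of 28815 probe sets, 21782 carried 1 gene symbol, 1598 several and 5435 none, by GEO's platform annotation updated through gene numbers, of which 91 were outside the reference table. The probe set with the highest mean stood for each of 998 genes with several, leaving 19938 genes, and none of the genes named here had several. No filter on dim genes was applied, and the number of arrays limits the precision. A mean per group was fitted over all 41 arrays in limma 3.58.1 (R 4.3.3), so that 8 groups share 1 estimate of the spread, with Benjamini-Hochberg adjustment over all genes and a threshold of 0.05. The fit was tested on simulated data. Gene lists were tallied with pandas 2.3.3 and numpy 2.4.6 under Python 3.11.15, and plots drawn with matplotlib 3.10.9.

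Genes named were the 15 highest and 15 lowest called without overlap (predicted genes skipped), members of the 66 gene lists beside the whole list's count, and the 5 genes with the smallest p for the difference between ages. The lists held 1438 entries, of which 1346 matched a measured gene. A gene can belong to several lists. The comparison, its genes and its lists were chosen with earlier results of these data known, so the lists' directions are not independent evidence. Replicate numbers come from the titles and do not pair animals. Alternatives changed the normalization, the filter, the probe set rule, the test, the weights, the covariates, the arrays and the threshold.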

Additional observations from a re-analysis of the deposited data

Results flagged for a closer look

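Within the old groups, 70 of 632 sets of values, from the named genes and the list means at day 0 and at day 5, had 1 array whose gap to the nearest other array was large for the group's range by Dixon's test. Chance flags about 1 in 20 such sets, and genes of a list are not independent. The log2 levels of these arrays follow, with no cause tested. Day 0 replicate 1 lay above its group in the list means of MMP, ADAM and ADAMTS proteases (6.18), Schwann and nerve (5.58), cartilage (6.01), fibrillar collagens (7.71), osteoblast (8.33) and other collagens (5.95). Its levels of Adm (4.88), Alpl (8.01), Bmp1 (7.38), C1qtnf3 (5.36), Col12a1 (8.34), Col1a1 (11.37), Col1a2 (11.29), Col2a1 (6.71), Col3a1 (8.26), Col5a2 (7.49), Col6a2 (6.80), Cthrc1 (7.12), Gli3 (5.59), Itga11 (6.42), Mmp14 (8.38), Postn (10.04) and Timp1 (8.39) lay above those of the other arrays. Its levels of Per1 (6.57) and Satb1 (7.80) lay below those of the other arrays. Day 0 replicate 3 lay below its group for Slc2a1 (6.71). Day 0 replicate 5 lay above its group in the list means of chemokine receptors (6.46), complement (7.07), lysosome and cathepsins (9.15), metallothionein and oxidative stress (8.67), plasma cell (6.90), secretory pathway (8.70) and tissue-resident macrophage (7.46). Its levels of C1qb (8.83), Jchain (10.83), Mrc1 (8.9996), Ms4a6d (7.05) and Vcam1 (10.02) lay above those of the other arrays. Its level of Frzb (3.61) lay below those of the other arrays. Day 0 replicate 6 lay below its group in the list mean of haem synthesis and iron (8.13). Its levels of Alas2 (10.04), Car2 (10.66), Kel (8.31) and Slc4a1 (10.34) lay below those of the other arrays.

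Day 5 replicate 1 lay above its group in the list mean of MHC II and dendritic cell (6.59). Its level of Ms4a1 (6.43) lay above those of the other arrays. Its levels of Arg1 (5.98) and Vegfa (7.19) lay below those of the other arrays. Day 5 replicate 2 lay above its group in the list mean of eosinophil (5.07). Day 5 replicate 4 lay above its group for Kitl (6.94) and Stab2 (7.66). Day 5 replicate 4 also lay below its group in the list means of clotting and fibrinolysis (6.77), elastic and matricellular (7.66), lysosome and cathepsins (8.92), pattern recognition (6.27) and recruited and repair macrophage (8.31). Its levels of Col3a1 (8.91), Csf3r (6.77), Fstl1 (9.97), Ftl1 (10.89), Lrrc17 (7.39), Mymk (7.39), Myog (6.26), Sfrp1 (6.94), Sfrp2 (9.13), Tbxas1 (5.70) and Tgfbi (9.24) lay below those of the other arrays. Day 5 replicate 5 lay above its group in the list mean of epidermis (5.90). Its level of Krt14 (8.58) lay above those of the other arrays. Its level of Siglech (4.75) lay below those of the other arrays.

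Probe sets without a gene name in the annotation were not part of the comparison. Of 5435 such probe sets, the authors' deposited table lists 262 higher and 729 lower at old day 5 than at old day 0 at a step-up p-value under 0.05.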

How the results depend on the processing

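The count of 6790 genes called between old day 0 and day 5 stayed within 1.5 times of itself in most alternatives, from 5150 with genes below the median mean level left out to 7875 with array quality weights. Leaving out each of the 11 arrays in turn gave 5853 to 6634. It was 1341 with a 2-fold minimum. With genes below the median mean level left out, where fewer genes are tested, 1868 were lower. The 7 arrays with lettered names, fewer than in the full comparison, gave 3370, of which 1961 were higher and 1409 lower. Median centring shifted the median change of all genes from −0.03 to −0.07, and higher and lower calls from 3647 and 3143 to 3292 and 3890. With quantile normalization the median change was −0.01 and the calls were 3252 and 3298. For the difference between the old and the young step, array quality weights called 2 genes, 1 higher and 1 lower, and leaving out 1 array gave 0 to 1, the 1 being lower and found without old day 0 replicate 4. The count of 5082 between old day 5 and day 10 was 829 with a 2-fold minimum, and with the kind of sample name as a covariate, added after seeing the data, 1417 of its genes were lower instead of 2235.

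Of 219 named genes that were called, 24 lost the call in some alternative, 24 among the lettered arrays and 7 without 1 array. None of the 251 named genes reversed in the alternatives run, and 8 not called were called in some. Medians of 22 of 66 lists moved by more than the SD between arrays in at least 1 alternative, and the cause was not tested.

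With the replicate number as a block 6543 genes were called. Same-numbered arrays correlated at −0.18 to 0.06 in their deviations from the group means and none correlated best with its own number, so the numbers were not taken as pairs. Array signal over background is not given in the files used here, so a low level cannot be told from an unexpressed gene.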
